A study of Mus musculus with 7 samples.

Results

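Carbonic anhydrases are enzymes that interconvert carbon dioxide and bicarbonate, and the genes described here are Car1, Car2, Car3, Car5a, Car8 and Car14 in mouse liver. These 6 of the 56691 genes counted were selected on a known result: a steep fall of Car3 after lipopolysaccharide (LPS), a component of the outer membrane of Gram-negative bacteria, had been seen in the same comparison. Some, not all, of its relatives were taken by gene symbol, with earlier results of these data known. The values of the 6 genes are therefore given as a description and carry no test. All 6 were found and all 6 passed the filter on low counts, which left 13683 genes. The question was whether the fall of Car3 was shared by cytosolic, mitochondrial and membrane relatives.

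The enzymes of this family hold a zinc ion with histidine side chains, and the zinc-bound water attacks carbon dioxide. The paralogs differ mainly in place: Car1, Car2 and Car3 encode cytosolic proteins, Car5a a mitochondrial protein and Car14 a protein of the plasma membrane, while Car8 encodes a related protein without carbonic anhydrase activity. In liver, bicarbonate feeds the first step of the urea cycle and the carboxylation of pyruvate in mitochondria, and Car3 is known as an abundant hepatocyte protein with low catalytic activity.

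Whole liver was taken from male C57BL/6J mice, an inbred laboratory strain, bought at 8 weeks of age and housed for 2 weeks. The LPS group (n = 3) received 10 mg/kg LPS into the peritoneum and was killed 24 h later. The control group (n = 4) had no LPS, and what it was injected with is not given in the sources used here. Polyadenylated RNA was made into strand-specific libraries and read on an MGISEQ2000, and 1 dose and 1 time point were measured.

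The total count was 14991022, 15096573, 15721944 and 18584140 for control replicates 1 to 4. For LPS replicates 1 to 3 it was 20500391, 17095607 and 17821331. Values below are counts or CPM, the counts brought to a common library size with TMM factors, which rest on the assumption that most genes do not change. A floor of 3 counts lay between 0.138 and 0.212 CPM in these libraries. Some libraries stood apart. Genes of the mitochondrial genome took 23.7%, 14.6%, 7.48% and 8.96% of the counts in control replicates 1 to 4, and 6.45%, 3.83% and 3.94% in LPS replicates 1 to 3. LPS replicates 2 and 3 were closer to each other than any other pair of a group, with an SD of their log2 ratio of 0.10 against 0.29 to 0.58. Hepatocyte markers were present in every library, and albumin (Alb), the most abundant of the 12 in control mice, had 37960, 37780, 61690 and 50490 CPM in control mice and 24640, 24660 and 24690 CPM in LPS mice. Alb was lower in every LPS mouse than in any control mouse, with a log2 fold change of -0.93 (SE 0.24, edgeR adjusted p = 0.0137).

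All 6 genes were lower in every LPS mouse than in any control mouse, and the fitted difference ran from 591-fold in Car3 to 1.39-fold in Car14 among the 5 with a fitted fold, Car1 having only a lower bound. The call rule in edgeR asked for a log2 fold change beyond 1 in size together with an adjusted p under 0.05. By that rule 5 of the 6 were lower, against 7.31% of all genes tested that were lower and 7.81% that were higher. The groups did not overlap, with LPS lower, in 6 of 6, against 17.4% of all genes tested, and 18.1% of all genes did not overlap with LPS higher. Since the genes were chosen by this contrast, nothing is read from these counts. The median log2 fold change of all genes tested was -0.01.

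Car3 (ENSMUSG00000027559), the cytosolic isoform of low activity, had the steepest fall of the 5 members with a fitted fold. It had 66614, 69052, 76929 and 81056 counts in control replicates 1 to 4, and 248, 66 and 105 counts in LPS replicates 1 to 3. In CPM these were 4714, 4358, 4701 and 3922 in control mice, and 11.4, 4.25 and 6.54 in LPS mice. The control mice lay close together, the LPS mice were all far below them, and LPS replicate 1 kept the most. The mean was 4424 ± 373 CPM (SD, n = 4) in control mice and 7.41 ± 3.67 CPM (SD, n = 3) in LPS mice, with a fitted log2 fold change of -9.21 (SE 0.39), or 591-fold lower. LPS mice therefore held 0.167% of the control mean. Without LPS replicate 1 the log2 fold change was -9.67. It took 0.444%, 0.457%, 0.489% and 0.436% of all counts in control replicates 1 to 4, and 0.00121%, 0.000386% and 0.000589% in LPS replicates 1 to 3. In bulk liver, fewer cells of a type and less RNA per cell cannot be told apart.

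Car1 (ENSMUSG00000027556), which encodes a cytosolic isoform known from red blood cells, had few reads in control liver and none that were detectable in LPS liver. It had 121, 107, 126 and 153 counts in control replicates 1 to 4, and 0 counts in each LPS replicate. Control mice held 8.56, 6.75, 7.70 and 7.40 CPM, a mean of 7.60 ± 0.75 CPM (SD, n = 4). The control mice were alike, and no LPS mouse had a read. Against 3 counts per LPS library, the gene was at least 44.0-fold lower. This bound does not reach the fold of Car3, because the control level of Car1 was too low for a larger one at this depth, so the sizes of the 2 falls cannot be ranked.

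The control counts of Car1 were a nearly fixed share of those of its neighbour Car3. They came to 0.182%, 0.155%, 0.164% and 0.189% of the Car3 counts in control replicates 1 to 4. The longest run of bases shared by their coding sequences was 20. The handling of multi-mapped reads is not given in the sources used here, and whether some Car1 reads came from Car3 transcripts was not tested.

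Car2 (ENSMUSG00000027562), which encodes a fast cytosolic isoform found in many tissues, red blood cells among them, fell less. It had 262, 151, 152 and 173 counts in control replicates 1 to 4, and 41, 62 and 27 in LPS replicates 1 to 3. In CPM these were 18.5, 9.53, 9.29 and 8.37 in control mice, and 1.89, 3.99 and 1.68 in LPS mice. Control replicate 1 stood high above the other control mice, and LPS replicate 2 was the highest of its group without reaching any control mouse. The mean was 11.4 ± 4.8 CPM (SD, n = 4) in control mice and 2.52 ± 1.28 CPM (SD, n = 3) in LPS mice, with a log2 fold change of -2.19 (SE 0.38), or 4.55-fold lower. Without control replicate 1 it was -1.86, and without LPS replicate 2 it was -2.66.

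Control replicate 1 was also the highest control mouse in the bile duct, red cell, fat cell, skeletal muscle and neutrophil marker lists. The bile duct (cholangiocyte) list, 8 genes, summed to 269, 113, 73.0 and 119.5 CPM in control replicates 1 to 4 and to 139, 167 and 162 CPM in LPS replicates 1 to 3, with Spp1 the most abundant. Of the 8, 1 was called higher and 0 lower in edgeR, with 2 lower at an unadjusted p below 0.05 and 0 lower in DESeq2. The red cell list summed to 309 CPM in this mouse, also the highest of its group, and the part of these cell types in the Car2 value was not tested.

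Red cell (erythroid) genes moved in the same direction as Car1 and Car2. Of 12 listed, 11 were found and 6 were tested, of which 4 were lower and 0 higher in edgeR, with 0 higher at an unadjusted p below 0.05, and 2 lower and 0 higher in DESeq2. Their median log2 fold change was -1.36, beside -0.01 over all genes. The list summed to 309, 184, 234 and 180 CPM in control replicates 1 to 4, and to 138, 54.6 and 54.4 CPM in LPS replicates 1 to 3. LPS replicate 1 was nearer to the control mice than the other LPS mice were. The most abundant gene, the beta globin Hbb-bs, had 130, 73.7, 78.9 and 53.8 CPM in control mice and 67.2, 16.4 and 18.8 CPM in LPS mice, so globin reads were present in each LPS library in which Car1 had none. In LPS replicate 1 the Hbb-bs level lay within the control range. The marker Epb42 had 0 counts in every mouse. The part of red cell content in the Car1 and Car2 values was not tested.

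Car5a (ENSMUSG00000025317), the mitochondrial isoform of liver that supplies bicarbonate inside the organelle, was lower by a similar amount. It had 241, 399, 596 and 754 counts in control replicates 1 to 4, and 155, 151 and 104 in LPS replicates 1 to 3. In CPM these were 17.05, 25.2, 36.4 and 36.5 in control mice, and 7.14, 9.73 and 6.47 in LPS mice. The control mice were spread over a wide range, with replicate 1 lowest, while the LPS mice were close together and all below it. The mean was 28.8 ± 9.5 CPM (SD, n = 4) in control mice and 7.78 ± 1.72 CPM (SD, n = 3) in LPS mice, with a log2 fold change of -1.89 (SE 0.27), or 3.71-fold lower. The 2 control mice with the lowest Car5a were those with the highest share of mitochondrial genome counts, 23.7% and 14.6%, and the part of that share in the spread was not tested. LPS mice, with the lowest Car5a, had the lowest mitochondrial shares. With genes of the mitochondrial genome left out of the table, the log2 fold change of Car5a was -1.91 (SE 0.27).

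Car8 (ENSMUSG00000041261), the member without catalytic activity, is known to bind the inositol trisphosphate receptor. It had 1307, 1543, 1741 and 2100 counts in control replicates 1 to 4, and 658, 432 and 417 in LPS replicates 1 to 3. In CPM these were 92.5, 97.4, 106 and 102 in control mice, and 30.3, 27.8 and 26.0 in LPS mice. Both groups were tight and far apart. The mean was 99.5 ± 5.9 CPM (SD, n = 4) in control mice and 28.0 ± 2.2 CPM (SD, n = 3) in LPS mice, with a log2 fold change of -1.83 (SE 0.14), or 3.54-fold lower. This was the smallest SE of the 5 members with a fitted fold.

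Car14 (ENSMUSG00000038526), a membrane isoform with its active site outside the cell, differed least. It had 650, 650, 936 and 875 counts in control replicates 1 to 4, and 458, 616 and 638 in LPS replicates 1 to 3. In CPM these were 46.0, 41.0, 57.2 and 42.3 in control mice, and 21.1, 39.7 and 39.7 in LPS mice. LPS replicate 1 was well below the rest, while LPS replicates 2 and 3 lay just under the lowest control mouse. The mean was 46.6 ± 7.4 CPM (SD, n = 4) in control mice and 33.5 ± 10.7 CPM (SD, n = 3) in LPS mice, with a log2 fold change of -0.48 (SE 0.22), or 1.39-fold lower, and the gene was not called. Without LPS replicate 1 the log2 fold change was -0.23, so that mouse set much of its size.

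**Figure D1:**
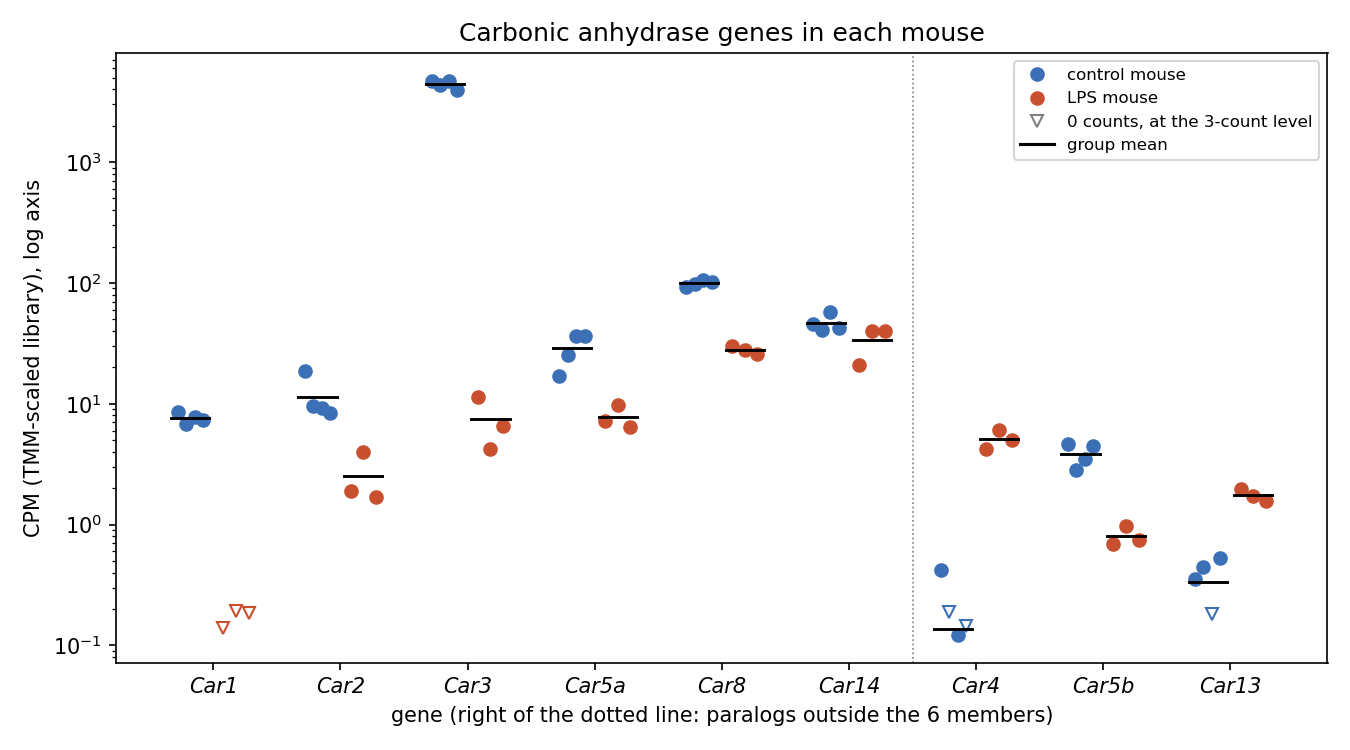
CPM of the 6 members and of 3 further paralogs (Car4, Car5b, Car13) in each of 4 control and 3 LPS mice, on a log axis, with bars at group means and open triangles for 0 counts drawn at the 3-count level of that library. Car3 drops from 4424 to 7.41 CPM in the mean, Car1 has 0 counts in every LPS mouse, and the groups of Car14 nearly touch.

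LPS replicate 1 differed from the other LPS mice in immune and endothelial markers as well as in Car3 and Car14. The macrophage list of 8 genes summed to 105, 162, 145 and 101 CPM in control replicates 1 to 4, and to 610, 111 and 111 CPM in LPS replicates 1 to 3. Of these genes, 3 were called higher and 1 lower in edgeR, and 2 higher and 1 lower in DESeq2. The most abundant gene was Clec4f in control mice and Marco in LPS mice. Without Marco the list summed to 103, 156, 141 and 98.2 CPM in control mice and to 200.2, 44.5 and 45.4 CPM in LPS mice, so LPS replicate 1 lay above all control mice and LPS replicates 2 and 3 below them. The genes called higher in edgeR were Marco, Adgre1 and Cd68, each higher in every LPS mouse than in any control mouse, and Clec4f was the gene called lower. The endothelial list of 8 genes summed to 104, 136, 86.2 and 119 CPM in control mice and to 146, 76.5 and 72.6 CPM in LPS mice, with 2 called higher and 1 lower. Its most abundant gene by group mean was Clec4g in control mice and Pecam1 in LPS mice. LPS replicate 1 was the highest mouse in both lists. Their part in the Car3 and Car14 values was not tested.

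The other carbonic anhydrase genes did not all move down. Of the 16 carbonic anhydrase genes, 10 lay outside the 6 members, and 3 of those 10 passed the filter. The mitochondrial paralog Car5b (ENSMUSG00000031373) had 66, 45, 57 and 93 counts in control replicates 1 to 4, and 15, 15 and 12 in LPS replicates 1 to 3. Car5b was lower in every LPS mouse, at 0.802 ± 0.145 CPM (SD, n = 3) against 3.87 ± 0.87 CPM (SD, n = 4) in control mice, with a log2 fold change of -2.27 (SE 0.39, edgeR adjusted p = 0.000908). Both mitochondrial genes were thus lower. The Car5a counts were 3.65, 8.87, 10.5 and 8.11 times those of Car5b in control mice and 10.3, 10.1 and 8.67 times in LPS mice. Apart from control replicate 1, the ratio was alike in the groups.

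Car4 and Car13 moved the other way. Car4 (ENSMUSG00000000805), which encodes an isoform tethered to the outer face of the membrane by a lipid anchor, had 6, 0, 2 and 0 counts in control replicates 1 to 4, and 92, 94 and 80 in LPS replicates 1 to 3. It was near the floor in control mice and present at a like level in all LPS mice, with 5.09 ± 0.91 CPM (SD, n = 3) and a log2 fold change of 5.28 (SE 0.73, edgeR adjusted p = 0.000186). With a mouse left out, the log2 fold change of Car4 was between 4.79 and 6.81, the highest without control replicate 1. Car13 (ENSMUSG00000027555), another cytosolic isoform, had 5, 7, 0 and 11 counts in control mice, and 43, 27 and 25 in LPS mice. Every LPS mouse was above every control mouse, with a log2 fold change of 2.37 (SE 0.71, edgeR adjusted p = 0.0262), and the call was lost without LPS replicate 1, 2 or 3 (edgeR adjusted p = 0.0768, 0.0767 and 0.068). The cytosolic class therefore held Car13, which was higher, beside 3 members that were lower, and in the membrane class Car4 was higher while Car14 was not called. The 7 genes below the filter were Car6, Car7, Car9, Car10, Car11, Car12 and Car15. Of these, Car6 and Car10 had at most 3 counts in every mouse. Ptprz1, a receptor phosphatase with a carbonic anhydrase-like domain, also had at most 3, and Ptprg was not analysed here.

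Neutrophil markers rose together with Car4. Of 8 listed, 6 were tested, and 6 were higher and 0 lower in edgeR, with 0 lower at an unadjusted p below 0.05 and 0 lower in DESeq2. The list summed to 5.24, 4.04, 1.65 and 2.85 CPM in control replicates 1 to 4, and to 199.7, 141 and 140.1 CPM in LPS replicates 1 to 3, with Csf3r the most abundant in control mice and S100a9 in LPS mice. Its part in the Car4 and Car13 values was not tested.

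The summed level of the 16 genes was set by Car3 in control liver and by other genes in LPS liver. The sum was 4623 ± 376 CPM (SD, n = 4) in control mice and 87.8 ± 7.5 CPM (SD, n = 3) in LPS mice, a ratio of 52.7. Without Car3 it was 199 ± 17 CPM (SD, n = 4) and 80.4 ± 11.2 CPM (SD, n = 3), a ratio of 2.48. By class, the ratio of control to LPS was 366 for the cytosolic genes and 4.17 for the cytosolic genes without Car3. It was 3.81 for the mitochondrial genes, 3.54 for the genes without activity and 1.22 for the membrane genes. These ratios are given with no test, since the members that dominate each class were chosen with this contrast known.

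The make-up of the family's counts, which are not corrected for gene length, turned over. Car3 held 96.1%, 96.0%, 95.5% and 95.1% of the family's counts in control replicates 1 to 4. In LPS replicates 1 to 3 it held 14.3% (95% Wilson interval 12.7 to 16.0), 4.48% (3.53 to 5.66) and 7.38% (6.14 to 8.86) of 1734, 1474 and 1422 counts. The share of Car14 went from 0.938%, 0.903%, 1.16% and 1.03% to 26.4%, 41.8% and 44.9%, and that of Car8 from 1.89%, 2.14%, 2.16% and 2.46% to 37.9%, 29.3% and 29.3%. In LPS liver the family was thus mostly Car14 and Car8, with Car8 ahead in replicate 1 and Car14 ahead in replicates 2 and 3, although both genes had fewer CPM than in control liver.

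**Figure D2:**
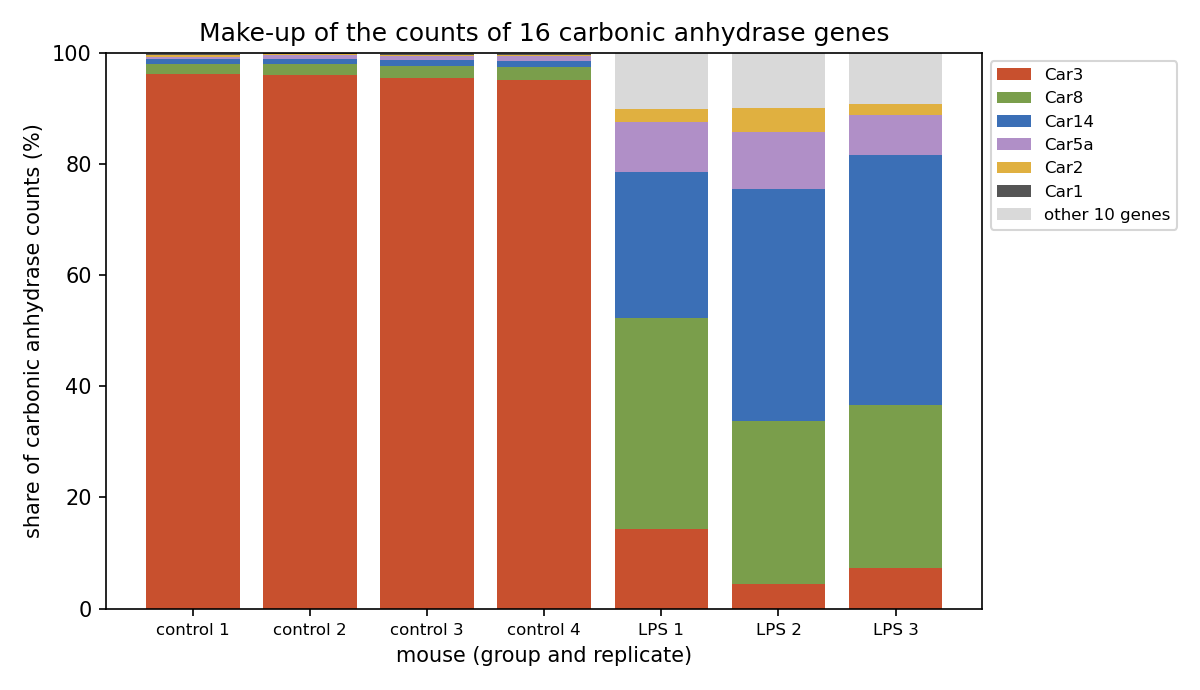
Share of the counts of 16 carbonic anhydrase genes (%, stacked from 0 to 100) held by each member and by the other 10 genes together, in each of 4 control and 3 LPS mice. Car3 holds at least 95.1% in control mice and at most 14.3% in LPS mice, where Car8 and Car14 take most of the counts.

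To compare genes with each other, CPM was divided by the length of the merged exons in kilobases (GENCODE M21). In control liver the order of CPM per kilobase was Car3 at 1544 ± 130 (SD, n = 4), Car8 at 25.8 ± 1.5, Car5a at 21.5 ± 7.1, Car14 at 18.3 ± 2.9, Car1 at 6.09 ± 0.60 and Car2 at 4.72 ± 1.97. Car3 stood apart from the rest. Car5a overlapped both Car8 and Car14 from mouse to mouse, and Car1 overlapped Car2. In LPS liver the order of CPM per kilobase was Car14 at 13.2 ± 4.2 (SD, n = 3), Car8 at 7.28 ± 0.57, Car5a at 5.81 ± 1.28, Car3 at 2.58 ± 1.28, Car2 at 1.04 ± 0.53 and Car1 at 0. Car3 had moved from the first place to the fourth, and Car8 overlapped Car5a, as Car3 did Car2, from mouse to mouse. These overlaps are for merged exons. With coding length in place of merged exons, Car3 was still first in control liver and was the third in LPS liver. The control means of Car8 and Car5a were then 114 and 32.1 CPM per kilobase, further apart than by merged exons. The LPS means of Car14 and Car8 were then 33.1 and 32.1 CPM per kilobase, nearly alike.

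Markers of the other tissues that hold much Car3, muscle and fat, were low in control liver. Of 8 skeletal muscle genes, Acta1, Ckm, Myh4, Myh1 and Tnnt3 had 0 counts in every mouse, and the list summed to 1.06, 1.01, 0.672 and 0.387 CPM in control replicates 1 to 4 and to 0.553, 0.387 and 0.125 CPM in LPS replicates 1 to 3. Only Mylpf, its most abundant gene, was tested and it was not called. Of 8 fat cell (adipocyte) genes, Lep had 0 counts in every mouse, Plin1 and Retn had at most 3, and Adipoq had 5, 0, 0 and 0 counts in control mice. The control level of Car3 was 3922 CPM or more in mice whose muscle list summed to 1.06 CPM or less. The adipocyte list summed to 22.4, 20.95, 14.8 and 13.0 CPM in control mice and to 104, 97.3 and 97.8 CPM in LPS mice, with Fabp4 the most abundant and 2 of 4 tested genes higher and 1 lower. Without Fabp4 it summed to 11.3, 10.8, 6.36 and 7.79 CPM in control mice and to 15.7, 21.8 and 23.3 CPM in LPS mice.

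Marker genes of the liver zones were counted as well. Of 10 pericentral hepatocyte genes, which mark the cells around the central vein, 10 had a log2 fold change below 0, and 6 were called lower and 0 higher in edgeR, with 0 higher at an unadjusted p below 0.05 and 7 lower and 0 higher in DESeq2. Their median log2 fold change was -1.56, and the list summed to 7907, 11730, 11950 and 10040 CPM in control replicates 1 to 4 and to 6141, 6418 and 6494 CPM in LPS replicates 1 to 3, with Cyp2e1, which was not called, the most abundant. Without Cyp2e1 the list summed to 3161, 3800, 4242 and 3744 CPM in control mice and to 638, 686 and 671 CPM in LPS mice. Of 10 periportal genes, 3 were higher and 2 lower with a median of 0.17, and the list summed to 3641, 3734, 4691 and 5808 CPM in control mice and to 4858, 6691 and 6630 CPM in LPS mice, with Ass1 the most abundant in control mice and Pck1 in LPS mice. Of the 12 general hepatocyte genes, 3 were higher and 2 lower with a median of 0.21, and the list summed to 81640, 84130, 115600 and 100300 CPM in control mice and to 88700, 108800 and 110300 CPM in LPS mice. This sum of LPS mice lay within the control range through Alb: without it the list summed to 43680, 46350, 53930 and 49790 CPM in control mice and to 64060, 84190 and 85630 CPM in LPS mice, all above the control mice. Genes of the list moved in opposite directions: Alb, Ttr, Apoa1 and G6pc were lower in every LPS mouse than in any control mouse, and Fgb, Trf, Tat, Cps1 and Hnf4a were higher in every LPS mouse. Whether the changes in pericentral or general hepatocyte genes had a part in any member's value was not tested.

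The genes whose profile over the 7 mice was nearest to each member were found by the root mean square distance of centred log2 CPM, among 12376 genes. For Car3 these were Inmt (0.43), which encodes an indolethylamine methyltransferase, the unnamed ENSMUSG00000120173 (0.65) and Hsd3b5 (0.69), a steroid dehydrogenase gene. Inmt stood at 689 ± 92 CPM (SD, n = 4) in control mice and 1.58 ± 0.27 CPM (SD, n = 3) in LPS mice, and Hsd3b5 at 306 ± 57 and 1.29 ± 0.80 CPM. Inmt was also the nearest gene to Car1 (0.41), followed by Mup-ps12 (0.42) and ENSMUSG00000120173 (0.48), and these distances depend on the pseudocount of 0.5 since Car1 was at 0 in LPS mice. The distance of Car3 to ENSMUSG00000120173 depends on it too, since that gene was also at 0 in LPS mice. The nearest gene to Car2 was Serpine2 (0.28), to Car5a Akr1c19 (0.18), to Car8 Gsto1 (0.08) and to Car14 Ccdc77 (0.12). Car8 had the closest companions, with Adh1, an alcohol dehydrogenase gene, at 0.10 and 1609 ± 107 CPM (SD, n = 4) against 406 ± 45 CPM (SD, n = 3). The log2 CPM was centred but not scaled to its spread, so these distances rest largely on the size of the LPS difference. Members whose log2 fold changes lay far apart could therefore not share a nearest gene, and nothing is read from the lack of one.

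On chromosome 3 the genes run Car13, Car1, Car3, Car2 in the RefSeq annotation of GRCm38.p6, and neighbours moved in opposite directions. Car1, Car3 and Car2 were lower, while Car13, at one end of the row, was higher. The opposite direction rests on Car13 alone, which had few counts and whose call was lost without LPS replicate 1, 2 or 3. At the other end, beyond Car2, Gm9733 and Sirpb1a were below the filter, with at most 12 and 13 counts in a mouse. Beyond Car13, Rbis had a log2 fold change of 0.22 (SE 0.20, edgeR adjusted p = 0.446) and E2f5 of -0.39 (SE 0.29, edgeR adjusted p = 0.352), and neither was called. Car14 lies elsewhere on the same chromosome, and neither of its direct neighbours, Aph1a and Anp32e, was called. Next to Car8, Tox was higher, with a log2 fold change of 1.68 (SE 0.38, edgeR adjusted p = 0.00549), and Rab2a was not called. Slc7a5 and Banp, on either side of Car5a, were not called.

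The stretch of coding sequence that holds the zinc-binding histidines is shown for the 6 members because it is where Car8 parts from the others. Each line gives 21 bases of the coding strand from GENCODE M21 transcripts, and capitals mark the first and second of the zinc-binding codons. The third lies further along.
Car1: cagttcCATtttCACtggggc
Car2: cagtttCACtttCACtggggc
Car3: caattcCATcttCACtggggc
Car5a: cagtttCATttcCACtgggga
Car8: gaagttAGAtttCACtgggga
Car14: cagctcCACctgCACtggggt
Counting the third, Car1, Car2, Car3, Car5a and Car14 had 3 histidine codons and Car8 had 2, since its first is AGA, an arginine codon. The gene without the full site and the mitochondrial gene with it had log2 fold changes of -1.83 and -1.89, and no test compared them.

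RefSeq promoter sequences were found for 2 of the 6 members, Car5a and Car14, a gene that was lower and called and a gene that was not called. The 250 bases before the start are shown, 5′ to 3′ on the strand of the gene, from chr8:121944913-121945162 (minus strand) and chr3:95904686-95904935 (minus strand) of GRCm38.p6. Capitals mark the CCAAT letters.
Car5a: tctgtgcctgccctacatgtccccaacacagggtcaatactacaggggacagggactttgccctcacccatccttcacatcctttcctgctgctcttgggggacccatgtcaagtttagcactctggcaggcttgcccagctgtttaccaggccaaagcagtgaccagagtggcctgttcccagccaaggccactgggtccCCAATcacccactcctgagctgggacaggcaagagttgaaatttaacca
Car14: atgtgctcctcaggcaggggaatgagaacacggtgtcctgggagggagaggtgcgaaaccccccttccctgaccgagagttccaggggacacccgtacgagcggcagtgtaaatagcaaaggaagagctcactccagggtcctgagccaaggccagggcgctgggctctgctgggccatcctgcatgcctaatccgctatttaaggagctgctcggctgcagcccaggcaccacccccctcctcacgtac
A set of 5 motifs was searched on both strands, and their shares among 32851 mouse promoter windows of the same length were 12.4% for TATAAA, 33.8% for CCAAT, 32.7% for GGGCGG, 7.02% for TTCNNNGAA and 6.75% for TGANTCA. Car5a held CCAAT once, 49 bases before the start, and none of the 5 was in the Car14 window. A match is a description of letters and not a binding site.

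Genes that move or use bicarbonate were counted beside the enzymes. Of 27 transporters of bicarbonate, protons and lactate, 14 were tested, and 3 were higher and 1 lower, with a median log2 fold change of 0.01. The lactate carriers Slc16a1 and Slc16a3 had log2 fold changes of 1.49 (SE 0.18, edgeR adjusted p = 6.62e-05) and 5.75 (SE 0.67, edgeR adjusted p = 4.27e-05), and the sodium bicarbonate cotransporter Slc4a4 of 1.32 (SE 0.20, edgeR adjusted p = 0.000396). Each was higher in all LPS mice than in any control mouse. Another lactate carrier, Slc16a7, was lower, under the fold threshold, with a log2 fold change of -0.66 (SE 0.15, edgeR adjusted p = 0.00646). Also under that threshold, Bsg was higher at 0.89 (SE 0.15, edgeR adjusted p = 0.000807) and Slc9a8 lower at -0.71 (SE 0.16, edgeR adjusted p = 0.0055). Slc16a3 had 0, 3, 1 and 1 counts in control replicates 1 to 4, and 139, 67 and 39 in LPS replicates 1 to 3. Its control counts were at or below the floor of 3 counts, so the size of its fold is uncertain. Slc4a10 was lower, with 14, 24, 6 and 13 counts in control mice and 3, 1 and 0 in LPS mice (log2 fold change -3.45, SE 0.92, edgeR adjusted p = 0.015), and this call was lost without control replicate 1, 2 or 4 or LPS replicate 2 or 3.

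Of 12 enzymes that use bicarbonate and their partners, 11 were tested, and 1 was lower and 0 higher in edgeR, with 4 higher and 5 lower at an unadjusted p below 0.05, and 1 lower and 0 higher in DESeq2. The median log2 fold change was -0.30. The one called was Acacb, an acetyl-CoA carboxylase gene, with a log2 fold change of -1.30 (SE 0.20, edgeR adjusted p = 0.000395). Acaca, another such gene, was lower under the fold threshold, at -0.94 (SE 0.17, edgeR adjusted p = 0.00129). Cps1, the first enzyme of the urea cycle and a user of mitochondrial bicarbonate, was the most abundant of the list, with a log2 fold change of 0.61 (SE 0.22, edgeR adjusted p = 0.0527), and was not called. Pyruvate carboxylase (Pcx), the other mitochondrial user named above, had a log2 fold change of 0.73 (SE 0.16, edgeR adjusted p = 0.00446), under the fold threshold. Nags was higher as well, under that threshold, at 0.53 (SE 0.16, edgeR adjusted p = 0.0252). Some other mitochondrial carboxylase genes were lower, also under the fold threshold, with log2 fold changes of -0.74 for Pccb (SE 0.16, edgeR adjusted p = 0.00492), -0.64 for Pcca (SE 0.17, edgeR adjusted p = 0.0172) and -0.62 for Mccc1 (SE 0.15, edgeR adjusted p = 0.0106), while Mccc2 had -0.30 (SE 0.17, edgeR adjusted p = 0.216).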

How the data were processed

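Liver RNA of 4 control and 3 LPS mice was compared. The deposited values are raw read counts per gene, whole numbers that the authors did not normalize, and the submitters' processing notes name cutadapt 1.9.1, HISAT2 2.2.1, HTSeq 0.6.1, DESeq2 1.34.0 and the build GRCm39. The annotation release, the strand setting of the counting and the handling of multi-mapped reads are not given in the sources used here. That the replicates are separate mice rests on the labels and the study's text. The members and gene lists were chosen with earlier results of these data known.

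Genes were filtered with filterByExpr and scaled by TMM in edgeR 4.0.16 (R 4.3.3). The LPS and control groups were compared with its quasi-likelihood F test on treatment alone, and p-values were adjusted by Benjamini-Hochberg over 13683 genes. The SE of a log2 fold change was its size divided by the square root of F. Members carry no p-value. Named genes were all 6 members, every other carbonic anhydrase gene, called genes of the transporter and enzyme lists (at most 5 per direction), marker lists by counts and sums, the 3 genes nearest to each member among genes averaging 1 CPM or more, and genomic neighbours. Aph1a, Anp32e, Rab2a, Slc7a5 and Banp are named as neighbours. Cps1, Pcx, Pccb, Pcca, Mccc1, Mccc2, Acaca, Nags, Slc16a7, Bsg and Slc9a8 were named after their values were seen. So were single markers other than the most abundant or undetected ones. The ratio of Car1 to Car3 counts, the counts of the lists at an unadjusted p and of the marker lists with DESeq2, and the list sums without Marco, Cyp2e1, Alb or Fabp4, were added after the data were seen. A fold against a group at 0 used 3 counts per library. The libraries carried no molecular identifiers, so intervals and floors cover counting error only.

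Lengths and coding sequences came from GENCODE M21, which is on another build than the counts, so it was used for lengths, coding bases and names. The coding sequence was the longest reading frame whose length equals that of the annotation. Promoters and gene order came from RefSeq (GRCm38.p6).

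Alternatives were RLE factors, DESeq2 1.42.0, unscaled total counts, mitochondrial genes left out, no filter on low counts, at least 10 counts in every sample, a replicate block, no fold change threshold, LPS replicates 2 and 3 summed, coding length, and leaving out each mouse in turn.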

Additional observations from a re-analysis of the deposited data

Results flagged for a closer look

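Car2 in control mice was picked out because 1 sample lay far from the others. Control replicate 1 had 18.5 CPM, and the other control mice had 8.37 to 9.53 CPM. Its gap to the nearest of them was 0.886 of the range of the group. Chance alone picks out about 1 in 20 groups by this criterion, and all 6 members were looked at in control mice only, since the criterion is not used for groups of 3. Without this mouse the log2 fold change of Car2 was -1.86, in place of -2.19, and the LPS mice were still below the remaining control mice.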

How the results depend on the processing

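No member changed direction under any alternative that gave it a value. With at least 10 counts in every sample, 693 genes were higher over the whole table and 0 of the other carbonic anhydrases were. Car4 and Car13 were left out, as each had control mice below that minimum. Without a fold change threshold, 1825 genes were higher and 1773 lower. With LPS replicates 2 and 3 summed, the bound of Car1 was 64.8-fold, and 1 of the other carbonic anhydrases was higher, since Car13 had an adjusted p of 0.0642 in edgeR. With total counts, the log2 fold change of Car8 was -1.94. With each mouse left out in turn, it was between -9.67 and -8.93 for Car3, and 1 to 2 of the other carbonic anhydrases were higher.

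In the transporter list, 2 genes were lower with mitochondrial genes left out, 2 with no filter, 0 with at least 10 counts in every sample, 3 without a fold change threshold and 0 to 1 with a mouse left out. In the enzyme list, 2 were higher and 5 lower without a fold change threshold, 2 were lower with total counts, 2 with LPS replicates 2 and 3 summed and 1 to 2 with a mouse left out.

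Whether the replicate numbers that the groups share pair the mice could not be decided from so few pairs. The correlations of same-numbered mice were 0.16, -0.06 and 0.06, and those of the other pairs ran from -0.13 to 0.09. With the replicate number as a block, 995 genes were higher and 926 lower, and the log2 fold changes were -9.36 for Car3, -2.32 for Car2, -1.70 for Car5a, -1.82 for Car8 and -0.56 for Car14. With coding length, the order in control liver had Car14 before Car5a and Car2 before Car1. Depth limited Car1, whose fall could be given only as a bound, and Car4, Car13, Slc4a10 and Slc16a3, whose counts were low in 1 group.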
